A study of Mus musculus with 6 samples.

Results

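SOX genes encode transcription factors that bind DNA through a high-mobility-group domain, and 10 of them that mark progenitors or new neurons of the early brain were followed here (Sox1, Sox2, Sox3, Sox4, Sox5, Sox6, Sox8, Sox9, Sox11 and Sox21). They were picked by gene name among the 55471 genes counted in each library and not by a cut on their values, but with earlier results of these data known. RNA came from the rostral-most telencephalic primordium of mouse embryos at E11.5. Controls (3 samples) carried Dicer alleles flanked by loxP sites, Dicer F/F, and no Cre, although the genotype field of the labels calls them WT. Rx-Dicer mutants (3 samples) carried the same Dicer F/F alleles and Rx-Cre, which deletes Dicer, the enzyme that makes mature miRNAs, in cells derived from the anterior neural fold. Rx-Cre mice were kept on a CD1 background and the floxed Dicer mice on C57BL/6. According to the study, recombination at this age is strongest in the rostral and ventral telencephalon and weaker in the neocortex, so a dissected piece can hold cells that still have Dicer. No label says whether a library is 1 embryo or several, and p-values measure the spread between these samples, which may be technical in part.

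The members fall into families of known roles. SOXB1 factors (Sox1, Sox2, Sox3) keep neuroepithelial cells as progenitors, whereas the SOXB2 factor Sox21 binds similar DNA, represses where SOXB1 factors activate, and favors neuronal differentiation. SOXC factors (Sox4, Sox11) switch on pan-neuronal genes in cells leaving the cycle. SOXD factors (Sox5, Sox6) lack a domain that activates or represses by itself and set the timing of neuron subtypes, and SOXE factors (Sox8, Sox9) act in neural stem cells, glia and neural crest, where Sox9 helps radial glia acquire stem cell properties.

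Since miRNAs repress mRNAs mainly by pairing with their 3′ UTRs, the 3′ UTRs of the members were searched for the 7-base DNA words that pair with bases 2 to 8 of 4 miRNAs abundant in neural progenitors. The mature miRNAs, credited to RefSeq (GRCm38.p6), are shown because their seeds define the words searched, and capitals mark the seed.
let-7a-5p: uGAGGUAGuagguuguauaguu
miR-9-5p: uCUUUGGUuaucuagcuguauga
miR-92b-3p: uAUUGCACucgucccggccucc
miR-17-5p: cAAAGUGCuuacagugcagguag

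The let-7 word CTACCTC was present in 0 of 10 member 3′ UTRs, against 10.8% of the 14023 tested genes with an annotated 3′ UTR. The miR-9 word ACCAAAG was likewise in 0 of 10, against 14.3%. The miR-92 word GTGCAAT occurred in 2 members, Sox4 and Sox11, against 7.77% of genes, and the miR-17 word GCACTTT in Sox4 alone, against 14.7%. Only the strand of the mRNA was searched, and the words do not overlap one another in the members. Member 3′ UTRs were 712 (Sox3) to 6957 bases (Sox11) long, while the median over the tested genes was 1222 bases. The 3 matches are the only ones found, and each is shown with the word in capitals.
Sox4, miR-92 word (GRCm38 chr13:28949132-28949158, minus strand): accatccatcctGTGCAATatgccgtg
Sox4, miR-17 word (GRCm38 chr13:28949537-28949563, minus strand): cacatcttttttGCACTTTtttttata
Sox11, miR-92 word (GRCm38 chr12:27339831-27339857, minus strand): ttttctcattttGTGCAATataattaa

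Both miR-92 words are followed by an A, the base that often flanks working sites, and the SOXC genes were the pair that held them. Sox9 and Sox21, described next, held none of the 4 words. Such a match is a description of the letters and not a binding site, and the absence of a match says only that these words are not in this annotated 3′ UTR.

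RNA levels were then compared between genotypes for all genes. Libraries held 34471501 to 48373468 counts on genes, and totals of the genotypes overlapped. Every member was expressed well above the floor of 3 counts per library, with 340 to 50063 normalized counts (counts divided by a size factor per library), and 10 of 10 passed the filter of the test. A gene was called when the DESeq2 adjusted p was under 0.05 and the log2 fold change larger than 0.32 in either direction. In this bulk tissue, fewer cells of a type and less RNA per cell cannot be told apart.

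Of the SOX members Sox21 and Sox9 were called, and both were lower in Rx-Dicer mutants. DESeq2 called 2 of 10 members lower and 0 higher, where 1.18% of the 17128 tested genes were called lower and 1.75% higher (2.93% in either direction), and 3 members had an unadjusted p under 0.05, against 13.1% of genes. In the same 2 members all Rx-Dicer values lay below all control values, which 10.7% of tested genes showed. No member had all mutant values above the controls (8.55% of genes, or 19.3% in either direction), and in the other 8 members the genotypes overlapped. The median log2 fold change of the 10 members was -0.05 and that of all tested genes -0.00087. With edgeR's quasi-likelihood test 0 of 10 members had an adjusted p under 0.05, and 2 of 10 had an unadjusted p under 0.05. That test called 0.0446% of the 17954 genes it tested, 12.9% of which had an unadjusted p under 0.05.

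**Figure D1:**
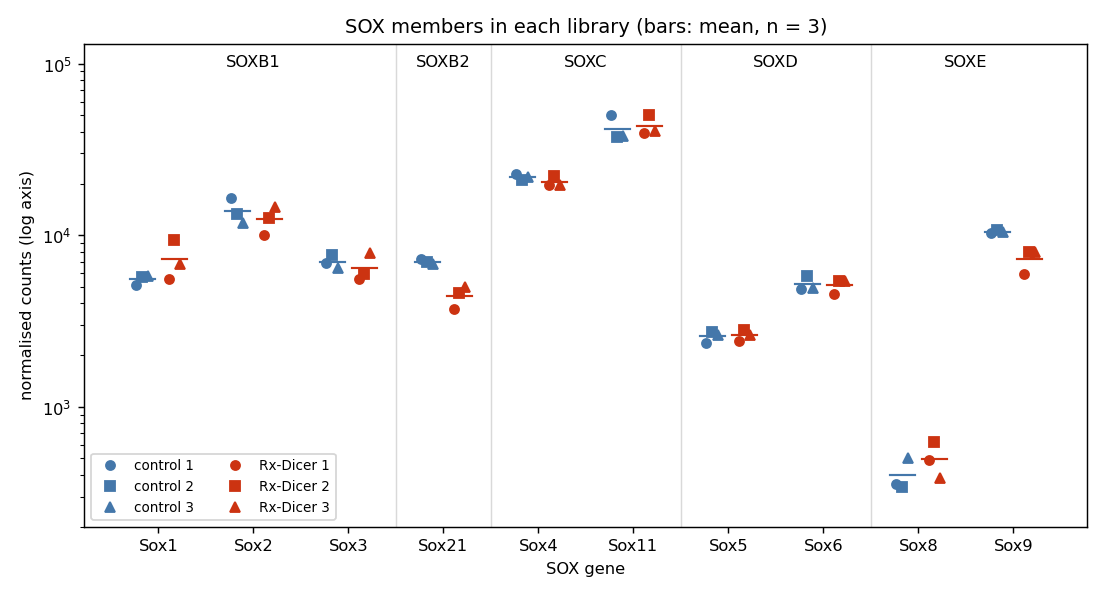
Normalized counts (log axis) of the 10 SOX members in each of the 3 control and 3 Rx-Dicer libraries, grouped by SOX family; horizontal bars are means. Sox21 and Sox9 are the members whose red points all lie below the blue ones.

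Sox21, the counterpart of the SOXB1 factors (ENSMUSG00000061517, GRCm38 chromosome 14, 118233232 to 118237030, minus strand, 1 exon), had 7235, 7001 and 6827 normalized counts in control libraries 1 to 3 and 3699, 4632 and 4998 in Rx-Dicer libraries 1 to 3. Controls lay within a narrow range, and the highest Rx-Dicer library was well below the lowest control. The mean fell from 7021 ± 205 to 4443 ± 670 (SD, n = 3 each), which is 63.3% of control. On the log2 scale Sox21 changed by -0.66 ± 0.14 (SE), at an adjusted p of 3.36e-04 by DESeq2 and 0.105 by edgeR. The call held without any 1 library, with changes of -0.75 to -0.55 and DESeq2 adjusted p from 2.47e-05 to 0.00833.

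Sox9, the radial glial SOXE factor (ENSMUSG00000000567, chromosome 11, 112782224 to 112787760, plus strand, 3 exons), had 10332, 10685 and 10428 normalized counts in controls and 5949, 7971 and 7992 in Rx-Dicer mutants. As for Sox21, the lowest value was in Rx-Dicer library 1, and controls differed little from each other. Its mean fell from 10482 ± 182 to 7304 ± 1174 (SD, n = 3 each), or 69.7% of control. Sox9 changed by -0.52 ± 0.14 on the log2 scale (SE), at an adjusted p of 0.0140 by DESeq2 and 0.174 by edgeR. This call, unlike that of Sox21, was lost without some libraries. Without control library 2 or control library 3 the size stayed at -0.51 and -0.52, but the DESeq2 adjusted p rose to 0.128 and 0.0730. Over all fits without 1 library the change ran from -0.59 to -0.39. It was smallest without library Rx-Dicer 1, where Sox9 was still called (DESeq2 adjusted p = 8.61e-04).

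Sox8, the other SOXE member (ENSMUSG00000024176, chromosome 17, 25565892 to 25570686, minus strand), was not called. It was the least abundant member, with 354, 340 and 500 normalized counts in controls and 492, 620 and 385 in Rx-Dicer mutants. The genotypes overlapped, and the log2 fold change was 0.32 ± 0.22 (SE, DESeq2 adjusted p = 0.615, 95% interval -0.11 to 0.76).

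**Figure D2:**
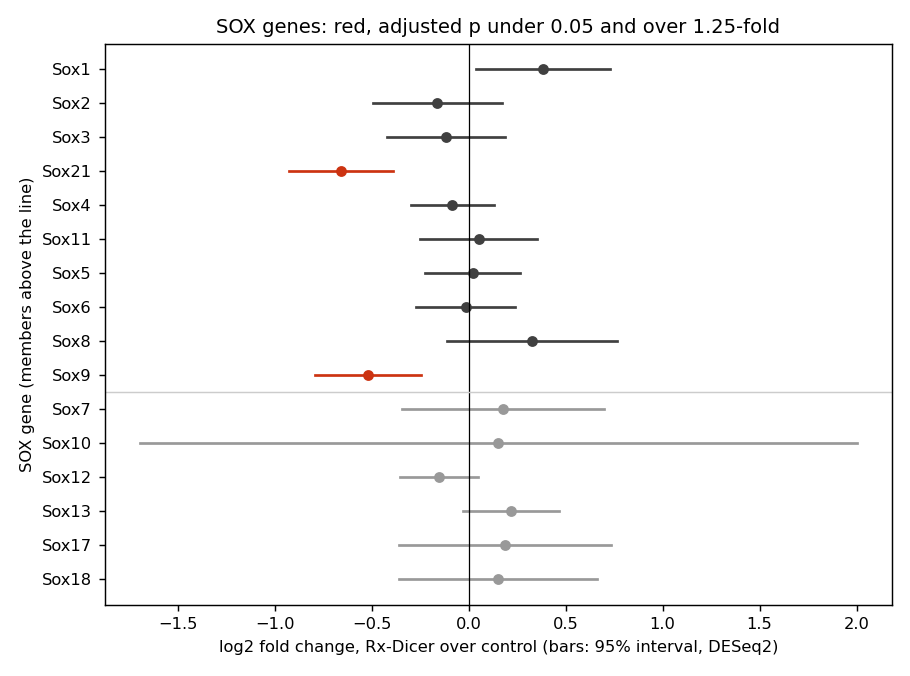
Log2 fold change (Rx-Dicer over control) of the 10 SOX members and of 6 other SOX genes, with 95% intervals from DESeq2. Red marks Sox21 (-0.66) and Sox9 (-0.52), the only genes shown that were called; all other intervals but that of Sox1 include 0.

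No SOXB1 gene was called, and of the 3 Sox1 had the largest estimate. Sox1 (ENSMUSG00000096014, chromosome 8, 12395295 to 12400126, plus strand) had 5142, 5670 and 5804 normalized counts in controls and 5567, 9316 and 6789 in Rx-Dicer mutants. Library Rx-Dicer 2 stood far above the rest and library Rx-Dicer 1 within the controls, so the genotypes overlapped. For Sox1 the estimate was 0.38 ± 0.18 on the log2 scale (SE), at an unadjusted DESeq2 p of 0.0306 and an adjusted p of 0.297. Over 86 of its bases (1.78% of its exon) lies Gm25239 on the same strand. Sox1 passed the threshold without library Rx-Dicer 1 (0.54, DESeq2 adjusted p = 0.0364) and was at 0.16 (adjusted p = 0.744) without library Rx-Dicer 2.

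Sox2, the core progenitor factor (ENSMUSG00000074637, chromosome 3, 34650405 to 34652461, plus strand), had 16466, 13356 and 11816 normalized counts in controls and 9984, 12674 and 14562 in mutants. Each genotype spanned a wide range, and the ranges overlapped. Its log2 fold change was -0.16 ± 0.17 (SE, DESeq2 adjusted p = 0.819), with a 95% interval from -0.50 to 0.17. Sox3, its X-linked relative (ENSMUSG00000045179), had 6893, 7709 and 6414 normalized counts in controls and 5592, 5914 and 7869 in mutants. Library Rx-Dicer 3 was the highest of all 6 for Sox3 and the other mutants the lowest, with a log2 fold change of -0.12 ± 0.15 (SE, DESeq2 adjusted p = 0.875, 95% interval -0.42 to 0.19).

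The SOXC genes, which drive pan-neuronal genes, were the members with the highest normalized counts and were not called. Sox11 (ENSMUSG00000063632, chromosome 12, 27334264 to 27342574, minus strand) had 50063, 37217 and 38023 normalized counts in controls and 39381, 49889 and 40494 in mutants. One library of each genotype, control 1 and Rx-Dicer 2, stood well above the others, a split that did not follow genotype. The log2 fold change of Sox11 was 0.05 ± 0.15 (SE, DESeq2 adjusted p = 0.964, 95% interval -0.25 to 0.35), and its sign turned with the gene length and GC correction. Sox4 (ENSMUSG00000076431, chromosome 13, 28948919 to 28953713, minus strand) had 22592, 21052 and 21755 normalized counts in controls and 19707, 22250 and 19675 in mutants. Its interval was the narrowest of the members, from -0.30 to 0.13 around a log2 fold change of -0.09 ± 0.11 (SE, DESeq2 adjusted p = 0.868).

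Sox5 and Sox6, long SOXD genes spread over 25 exon blocks each, were the members with the smallest differences. Sox5 (ENSMUSG00000041540, chromosome 6) had 2344, 2740 and 2634 normalized counts in controls and 2402, 2786 and 2634 in mutants, and a log2 fold change of 0.02 ± 0.13 (SE, DESeq2 adjusted p = 0.987). Sox6 (ENSMUSG00000051910, chromosome 7) had 4875, 5759 and 4922 in controls and 4556, 5424 and 5399 in mutants, and a log2 fold change of -0.02 ± 0.13 (SE, DESeq2 adjusted p = 0.987). Their 95% intervals reached from -0.23 to 0.26 and from -0.27 to 0.24, so changes as large as those of Sox9 and Sox21 lay outside them.

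To compare levels between genes, CPM values were divided by the length of annotated exon in kb. In controls, Sox2 had the highest level (159 ± 27.7, SD, n = 3), followed by Sox11 (119 ± 21.5) and Sox4 (107 ± 5.41). Libraries of these neighbors overlapped (Sox2 with Sox11, and Sox11 with Sox4). Sox3 (79.8 ± 6.01), Sox9 (59.7 ± 0.425), Sox21 (43.5 ± 1.48) and Sox1 (27.0 ± 1.69) came next, and Sox6 (8.23 ± 0.634), Sox5 (4.21 ± 0.295) and Sox8 (3.01 ± 0.709) were far lower. From Sox4 downward no control library of a gene overlapped those of the next, although Sox5 and Sox8 nearly met, at 3.87 and 3.82. For Sox5 and Sox6 this level is understated, since their exon length sums many alternative exons.

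In Rx-Dicer mutants the order per kb was the same except for Sox1 (35.8 ± 10.2, SD, n = 3) and Sox21 (27.9 ± 3.81), which changed places. Their libraries overlapped in mutants, at 27.8 to 47.3 for Sox1 and 23.5 to 30.2 for Sox21, and Sox1 also overlapped with Sox9. Within each library, however, the ratio of Sox21 to Sox1 per kb was 1.5 to 1.79 in controls and 0.63 to 0.94 in mutants, so Sox1 exceeded Sox21 in 3 of 3 mutant libraries and in 0 of 3 control libraries. A ratio within a library does not depend on how libraries are scaled. The ratio of Sox21 to Sox2 was 0.238 to 0.313 in controls and 0.186 to 0.201 in mutants, also without overlap. Sox9 to Sox8 was 15.7 to 23.7 in controls and 9.11 to 15.7 in mutants, with control library 3 and library Rx-Dicer 3 almost level. Sox9 to Sox2 overlapped, at 0.312 to 0.439 in controls and 0.273 to 0.313 in mutants. Sox1 to Sox2, Sox11 to Sox2 and Sox4 to Sox11 overlapped too, while Sox21 to Sox9 did not. Sox21 and Sox9 are the called members, so a ratio with either as its first gene partly repeats that call. These ratios are given as a description, with no test.

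**Figure D3:**
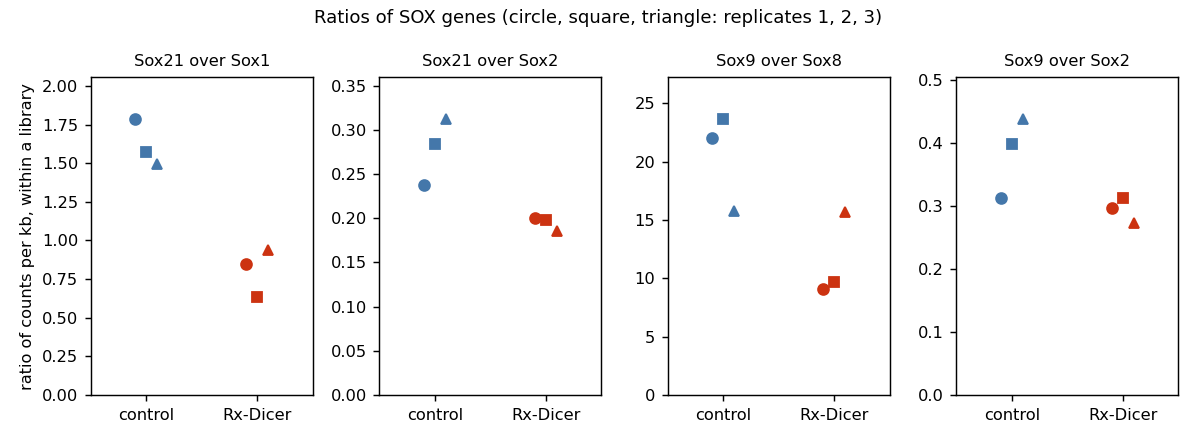
Ratios of counts per kb between SOX genes within each library, for 3 control (blue) and 3 Rx-Dicer (red) libraries; each axis starts at 0. Sox21 over Sox1 runs from 1.5 to 1.79 in controls and from 0.63 to 0.94 in mutants, and Sox9 over Sox2 overlaps between genotypes.

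As a share of the summed level per kb of the 10 members, SOXB1 transcripts made up 41.6 to 44.9% in controls and 42.3 to 48.8% in mutants, and SOXC transcripts 34.9 to 38.1% and 35.6 to 42.9%. Together these families thus held most of the sum of the 10 members in every library. Sox12, a SOXC gene outside the members, is not part of that sum. Its level per kb was 47.6 ± 0.501 in controls and 43.3 ± 2.49 in mutants (SD, n = 3). Sox21 took 6.76 to 7.44% in controls and 4.73 to 5.22% in mutants, and the SOXE pair 9.28 to 11.1% and 7.75 to 8.34%. The SOXD pair took 1.75 to 2.28% and 2.17 to 2.30%.

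The targeted gene and the other SOX genes give the setting of these values. Dicer1 had 6355, 7070 and 6270 normalized counts in controls and 4777, 7002 and 4644 in mutants (log2 fold change -0.26 ± 0.17, SE, DESeq2 adjusted p = 0.567). The library labelled Rx-Dicer 2 was at the control level, and reads from exons outside the deleted segment remain in these counts. Without that library Sox21 was at -0.69 (DESeq2 adjusted p = 9.79e-04) and Sox9 at -0.58 (adjusted p = 0.00670), both still called. Among 14 other SOX genes and noncoding RNAs of SOX loci, 10 were tested and 0 were called by DESeq2 or by edgeR. At an unadjusted p under 0.05 there were 0 by DESeq2 and 1 by edgeR, Sox13. Sox12, the remaining SOXC gene, lay below the controls in 3 of 3 mutant libraries, with a log2 fold change of -0.15 ± 0.10 (SE, DESeq2 adjusted p = 0.588). The SOXD gene Sox13 lay above them in 3 of 3, with 0.22 ± 0.13 (SE, adjusted p = 0.488). Sox14, Sox15, Sox5it and Sox5os5 were too low to be tested, the last of these at 0 in all libraries. Sox7, Sox17, Sox18, Sox30 and Sox6os had log2 fold changes from -0.44 to 0.19, with none called.

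Sox1 and Sox2 each lie within the span of a long noncoding RNA on the same strand, and neither shares annotated exon bases with it. Sox1ot had 344, 719 and 1147 normalized counts in controls and 874, 2899 and 930 in mutants, so library Rx-Dicer 2, the highest for Sox1, was also the highest for Sox1ot. Sox2ot was highest there too, with 1795 counts against 437 to 957 in the other libraries, while Sox2 was not. Neither RNA was called (log2 fold change 1.09 ± 0.73 and 0.32 ± 0.68, SE, DESeq2 adjusted p = 0.594 and 0.941). In that library the summed normalized counts of 8 subpallial markers stood at 18510, above the 4974 to 12853 of the other 5 libraries. Their part in the Sox1 value was not tested.

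Genes known to act with SOX factors or downstream of them came from lists written from general knowledge, with earlier results of these data known. The study itself names Lin28, Shh and Pax6 as changed in these mutants, so the counts of the SOXB1 list are a description only. Of 15 SOXB1 partners and targets, 4 were called higher and 2 lower, against 1.75% and 1.18% of all tested genes. The median log2 fold change of this list was -0.15. At an unadjusted p under 0.05 there were 8 of 15 by DESeq2 and 6 by edgeR, against 13.1% and 12.9% of all genes. The higher genes were Lin28a (2.63 ± 0.22, SE) and Lin28b (0.92 ± 0.19), RNA-binding proteins that block let-7 maturation, the eye field and forebrain factor Six3 (1.27 ± 0.22) and the ventral signal Shh (3.14 ± 0.77), with DESeq2 adjusted p from 3.73e-29 to 0.00518. Six3 had 1357, 684 and 1048 normalized counts in controls and 2177, 3018 and 2247 in mutants, which did not overlap, and its call was lost only with edgeR and with the replicate block plus length and GC correction (DESeq2 adjusted p = 0.148) among the alternatives run. The lower genes, named after their values were seen, were Pax6 and Fabp7. Pax6, the radial glial transcription factor, had 7210, 6927 and 6726 normalized counts in controls and 5064, 4749 and 5629 in mutants (log2 fold change -0.43 ± 0.12, SE, DESeq2 adjusted p = 0.0127). Fabp7, a radial glial lipid carrier, had 18594, 11207 and 10098 in controls and 9718, 6391 and 7473 in mutants (-0.76 ± 0.22, SE, adjusted p = 0.0307). Like Sox9 and Sox21, both had all mutant values below all control values. Without control library 2 Lin28a, Lin28b and Six3 kept their calls, whereas Shh, Pax6 and Fabp7 had DESeq2 adjusted p of 0.0719, 0.0553 and 0.0820. Fabp7 also lost its call without control library 1 (-0.44, DESeq2 adjusted p = 0.243), Rx-Dicer 2 (-0.63, adjusted p = 0.226) or Rx-Dicer 3 (-0.72, adjusted p = 0.194). With edgeR, Lin28a alone of these 6 genes had an adjusted p under 0.05 (0.0240).

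Of 5 SOXC targets 0 were called, with a median log2 fold change of -0.12. Tubb3, the neuronal tubulin, was at -0.25 ± 0.15 (SE, DESeq2 adjusted p = 0.520), but at -0.42 (adjusted p = 0.0246), past the threshold, without library Rx-Dicer 1. Tead2 was at -0.12 ± 0.12 (adjusted p = 0.793). Of 4 SOXE targets 0 were called, and Nfia and Nfib, factors that Sox9 is known to work with in glial specification, varied widely within controls. Nfia had 5738, 2880 and 1379 normalized counts in controls and 5275, 2254 and 3409 in mutants (0.13 ± 0.65, SE), and its interval from -1.15 to 1.41 included changes far larger than that of Sox9. Nfib was at -0.0032 ± 0.64 (SE). Of the SOXC and SOXE targets 0 had an unadjusted p under 0.05 by DESeq2 or edgeR. In the SOXD list 1 of 3 genes was called, Lhx6, which acts upstream of Sox6 in interneurons. Lhx6 had 50.1, 41.8 and 51.7 normalized counts in controls and 159, 188 and 90.3 in mutants, and rose by 1.61 ± 0.34 on the log2 scale (SE, DESeq2 adjusted p = 4.40e-04).

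Markers of the cell types in the dissected piece were examined because SOX genes are shared among them. Of 10 progenitor markers 0 were called, with a median log2 fold change of 0.03. The radial glial genes Pax6 and Fabp7, both called lower, stood in the SOXB1 list and not in this one. So did Nes, a progenitor filament gene named after its values were seen (-0.37 ± 0.17, SE, DESeq2 adjusted p = 0.287). Of the progenitor, pallial and endothelial markers 0 were called by edgeR and 0 had an unadjusted p under 0.05 by either tool. Vim, an intermediate filament of radial glia, was at 0.17 ± 0.11 (SE, DESeq2 adjusted p = 0.576) and Top2a, of cycling cells, at 0.06 ± 0.13. Summed progenitor markers ran from 220194 to 222889 normalized counts in controls and from 198728 to 240954 in mutants. Library Rx-Dicer 1, the lowest for Sox9, Sox21 and Sox2, was also the lowest in this sum, and the other mutant libraries were above all controls in it. The part of progenitor number in the Sox9 and Sox21 values was not tested.

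Of 5 intermediate progenitor markers, which label the cells between radial glia and neurons, 2 fell and 1 rose. Eomes had 5752, 5499 and 4111 normalized counts in controls and 3273, 3120 and 3835 in mutants (log2 fold change -0.59 ± 0.16, SE, DESeq2 adjusted p = 0.0137), and Insm1 changed by -0.55 ± 0.17 (adjusted p = 0.0418). Btg2, which is also a p53 target, changed by 0.87 ± 0.19 (adjusted p = 0.00115). Of 12 neuron markers 1 was called, Stmn3, at -0.61 ± 0.16 (adjusted p = 0.00791), and the list had a median of -0.22. At an unadjusted DESeq2 p under 0.05 there were 4 of 12 neuron markers and 4 of 5 intermediate progenitor markers (edgeR 3 and 4), against 13.1% of all genes. Gap43, a growth cone protein, and Elavl3, a neuronal RNA-binding protein, both named after their values were seen, had all mutant values below all controls and were not called (-0.44 ± 0.15 and -0.41 ± 0.16, SE, DESeq2 adjusted p = 0.0841 and 0.152). Over all tested genes 10.7% showed this separation. In the same list Reln, Nhlh2 and Ina, also named after their values were seen, had estimates above 0 and the rest below. Those of the 3 were 0.77 ± 0.63, 0.16 ± 0.24 and 0.11 ± 0.23 (SE), with the genotypes overlapping and none called. The calls of Eomes, Insm1 and Stmn3 were each lost in 3 or 4 of the 6 fits without 1 library, with changes of -0.79 to -0.40 over all 6 and DESeq2 adjusted p up to 0.166, 0.197 and 0.0846 where lost. Summed neuron markers were 38528 to 54173 in controls and 31559 to 49094 in mutants. Like Sox11, this sum was highest in control library 1, but library Rx-Dicer 2, the next highest for Sox11, was the lowest in it.

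Regional markers differed between genotypes for some genes and also between libraries of the same genotype. Of 8 subpallial markers 1 was called, Lhx8 (2.55 ± 0.49, SE, DESeq2 adjusted p = 7.07e-05), from 6.1 to 29.1 normalized counts in controls and 77.2 to 185 in mutants, and of 6 pallial markers 0. Nkx2-1, the ventral patterning factor, named after its values were seen, had the largest change of the subpallial list without passing the threshold. It had 3.7, 51.9 and 192 normalized counts in controls and 682, 1882 and 1307 in mutants, which did not overlap (3.97 ± 1.26, SE, DESeq2 adjusted p = 0.0549, edgeR adjusted p = 0.171). Nkx2-1 was called with the count filter, the second run alone, a looser threshold, the replicate block with or without the length and GC correction, and without control library 1 or control library 3. The pallial factors Lhx2 (-0.16 ± 0.18, SE) and Emx2 (0.01 ± 0.24) were present in all libraries at 4997 or more normalized counts. Summed pallial markers overlapped between genotypes, at 28002 to 46328 in controls and 25450 to 43822 in mutants. Control library 3 and library Rx-Dicer 2 were the lowest in them and the highest in summed subpallial markers. Nkx2-1 and Lhx8 did not overlap between genotypes, and the part of regional make-up in the Sox9 and Sox21 values was not tested.

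Sox9 is also made by mesenchyme and neural crest, and Sox10 by neural crest. Of 11 mesenchyme markers 2 were called higher and 0 lower, Col2a1 (0.62 ± 0.12, SE, DESeq2 adjusted p = 2.55e-05) and Foxd1 (0.70 ± 0.19, adjusted p = 0.0142), and their sum was 51090 to 98000 in controls and 80129 to 96291 in mutants. Col2a1, a collagen that Sox9 activates in cartilage, had 13978, 14005 and 16594 normalized counts in controls and 23473, 22831 and 22366 in mutants, opposite in direction to Sox9. Acan, which marks cartilage itself and was not picked by adjusted p or abundance, had 12.2 to 26.5 normalized counts in every library. Neural crest and glial markers (0 of 7 called by DESeq2 or edgeR, 1 with an unadjusted p under 0.05 by each) summed to 1799 to 5380 in controls and 3030 to 4465 in mutants, with Tfap2b at -0.09 ± 0.59 and Olig2 at 0.84 ± 0.28 (SE, DESeq2 adjusted p = 0.0841). Olig2 passed without library Rx-Dicer 1 (1.09, adjusted p = 0.0118) and was at 0.38 without library Rx-Dicer 2. Sox10 varied from 25.5 to 260 normalized counts across libraries without following genotype (0.15 ± 0.94, SE, DESeq2 adjusted p = 0.985). Endothelial markers (0 of 6 called) summed to 6201 to 6635 in controls and 3651 to 8390 in mutants, including Cdh5 (0.12 ± 0.43) and Kdr (0.06 ± 0.25). Of 7 blood and microglia markers 2 were called higher, Cx3cr1 (1.18 ± 0.31, SE, adjusted p = 0.0101) and Csf1r (0.98 ± 0.29, adjusted p = 0.0330), both of microglia. In both, library Rx-Dicer 2 lay within the controls (282 and 354 normalized counts), so the genotypes overlapped. Aif1, also of microglia and named after its values were seen, overlapped and was not called (1.00 ± 0.55, SE, DESeq2 adjusted p = 0.449). Foxd1, Cx3cr1 and Csf1r lost their calls in 4, 4 and 5 of the 6 fits without 1 library (DESeq2 adjusted p up to 0.152, 0.190 and 0.329). No marker in these lists was at 0 in all libraries, and the part of other cell types in the Sox9 and Sox21 values was not tested.

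Finally, genes whose pattern over the 6 libraries was most like that of Sox2 and Sox11 were listed. For Sox2 these were Gm11249, Tmx2 and Zfp932, with Pearson r of log2 normalized counts of 0.996, 0.995 and 0.991, and for Sox11 Lrrc8a, Acvr2a and Tor1aip1, with 0.988, 0.983 and 0.970. Of 12895 genes compared, 126 (0.977%) had an r over 0.9 with Sox2 and 60 (0.465%) with Sox11. With 6 libraries that share their scaling and depth, such values are a description only.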

How the data were processed

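RNA-seq was analyzed from 3 control and 3 Rx-Dicer samples, with 2 repeat-run files per sample that were summed (chi-square per degree of freedom 1.11 to 1.47 between runs of a sample, 20.5 to 29.6 between samples of a group). The deposited values are raw read counts per gene, and per the labels and methods the authors trimmed reads (Trim Galore 0.6.5), aligned them to GRCm38.p6 (HISAT2) and counted them by strand in union mode (HTSeq 0.12.4). The 5 tally lines per file name no gene and were left out. They held 6.79 to 10.7% of reads outside genes and 1.51 to 1.87% ambiguous reads per library. The 10.7% was in library Rx-Dicer 2, and the next highest was 8.32% in library Rx-Dicer 3. All genes were fitted with DESeq2 1.42.0 (R 4.3.3, with genotype alone in the model and Benjamini-Hochberg adjusted p over every gene tested), the tool the study names. edgeR 4.0.16 was an alternative, with TMM factors and a minimum of 10 counts in 3 or more samples. Both were tested on simulated data. Floors of 3 counts (0.0620 to 0.0870 CPM) cover counting error only. Positions, exon lengths, GC content and 3′ UTRs came from GENCODE M21 (GRCm38), which holds 55230 of 55471 identifiers. The 3′ UTR was the longest annotated one per gene. Members and lists were chosen with earlier results of these data known. Genes named were Dicer1, the members, other SOX genes, up to 4 called genes per list by adjusted p or, with none called, the 2 most abundant, and the 3 genes most like Sox2 and Sox11 among those with a mean of at least 100 normalized counts (pseudocount 0.5). Target and marker genes named outside this rule are marked as such where they appear. Alternatives were other scalings, filters, thresholds and runs, offsets for exon length and GC (splines with 5 degrees of freedom), the replicate number as a block, and fits without each sample. Same-numbered samples are different animals, and the small RNA libraries were not analyzed here.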

Additional observations from a re-analysis of the deposited data

How the results depend on the processing

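Across 17 alternatives, Sox21 kept its direction and was called in 16, and Sox9 in 14. Among these, the looser threshold uses the main fit and cannot lose a call, and each single run is a part of the same libraries. With edgeR's quasi-likelihood test 0 SOX members, 1 SOX partner or target and 0 marker genes were called, against 2, 7 and 9 with DESeq2 (edgeR adjusted p 0.105 for Sox21 and 0.174 for Sox9). Other SOX genes stayed at 0 in all 17. Leaving out each sample in turn gave 1 to 3 SOX members (1 without control replicate 2 or 3, 3 without Rx-Dicer replicate 1, which added Sox1), 4 (without control replicate 2) to 9 partners and targets, and 6 to 11 marker genes. Dicer1 ranged from -0.47 to -0.16 and passed at -0.47 (DESeq2 adjusted p = 8.81e-04) without Rx-Dicer replicate 2. What caused these shifts was not tested. Over all genes the count of calls was 502, and 8 with edgeR, 322 without independent filtering, 314 with the replicate block, 300 with block and length and GC correction, 285 without control replicate 2 and 309 without Rx-Dicer replicate 3.

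Same-numbered samples did not deviate together (correlations of deviations 0.27, -0.06 and -0.29), so the replicate block only adds a number as a term. With it 2 SOX members, 6 partners and targets and 8 marker genes were called, with Sox21 at -0.67 (DESeq2 adjusted p = 0.00189) and Sox9 at -0.53 (adjusted p = 0.0171), while Pax6, Eomes, Insm1 and Foxd1 had adjusted p of 0.0598, 0.0675, 0.147 and 0.0570. With the correction added to the block, Six3 lost its call (1.28, DESeq2 adjusted p = 0.148) and Pax6 was called again (-0.54, adjusted p = 0.0160). Eomes, Insm1 and Foxd1 stayed uncalled there.

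Signs turned for 12 genes, none of them called, although Tfap2b passed at 0.73 and Cdh5 at 0.45 when 1 sample was left out. With the length and GC correction Sox5 was at -0.13, Sox11 at -0.050, Nfia at -0.0050, Top2a at -0.084 and Kdr at -0.038, and with block and correction Sox5 at -0.13, Sox11 at -0.046, Top2a at -0.086, Sox10 at -0.22, Sox2ot at -0.12, Tfap2b at 0.084, Cdh5 at -0.028 and Kdr at -0.12. The block alone gave Sox10 -0.19, Tfap2b 0.17, Cdh5 -0.0041 and Kdr -0.031. Total-count scaling gave Sox6 0.0028 and Nfib 0.016, and Nfib was at 0.0069 with edgeR, 0.0016 with TMM factors and 0.0079 with the second run alone. Without single samples the ranges were -0.045 to 0.073 for Sox5, -0.061 to 0.066 for Sox6, -0.060 to 0.20 for Sox11, -0.31 to 0.67 for Sox10, -0.62 to 0.65 for Sox2ot, -0.50 to 0.32 for Nfib, -0.24 to 0.78 for Nfia, -0.0019 to 0.15 for Top2a, -0.21 to 0.23 for Emx2, -0.42 to 0.73 for Tfap2b, -0.16 to 0.45 for Cdh5 and -0.19 to 0.36 for Kdr. Among the other results of single genes, 64 in 17 genes lost the call, 5 in 4 genes gained it and 615 kept their side of the threshold.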
